A study of Rattus norvegicus with 18 samples.

Results

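The nuclear-encoded subunits of the mitochondrial respiratory chain and ATP synthase were followed across 6 groups of H9C2 cells. They were taken by gene symbol from the protein-coding genes outside the mitochondrial chromosome, as Nduf genes of series a, b, c, s and v for complex I, Sdha to Sdhd for complex II, Uqcr genes for complex III, Cox4i to Cox8 genes for complex IV and Atp5 genes for complex V. The rule took 84 of 32545 genes, with 36 in complex I, 4 in complex II, 7 in complex III, 19 in complex IV and 18 in complex V. Of these, 76 passed the filter for testing, and they were 33, 4, 7, 14 and 18 genes of complexes I to V. The filter was an FPKM (fragments per kilobase of gene, scaled by a divisor of each library) of at least 1 in at least 3 libraries. The rule itself uses symbols and no measured value. Ndufa4 was counted with complex I by its symbol, although its protein is known as a subunit of complex IV, and Ndufab1, Cyc1 and Cycs lie outside the rule.

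Complexes I to IV pass electrons from NADH and succinate to oxygen, and complexes I, III and IV pump protons while they do so. Complex V, the ATP synthase, lets the protons flow back and makes ATP from their gradient. Complexes I, III, IV and V are built from subunits of both genomes, with the proton-pumping or catalytic core partly made in the mitochondrion, whereas complex II is wholly nuclear-encoded. Heart muscle is among the tissues richest in these complexes.

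RNA of H9C2, a line that comes from embryonic rat heart, was measured in 6 groups of 3 libraries. P_ES10 and P_ES50 cells received 50 µmol/L of an agent named PE for 48 h together with 10 or 50 electric pulses of 100 µs at 1500 V/cm, and P cells received PE alone. ES10 and ES50 cells received the same pulses without PE, and NC cells had no treatment. Its question is what the pulses do to cardiac cells. All groups are of the same cell line, and the labels call its cell type myocardium. Of 12 cardiomyocyte markers, 3 reached an FPKM of 1 in at least 3 libraries (Tnnt2, Pln and Tnni3), and Myh6, Myh7, Ryr2 and Nkx2-5 stayed near 0, with Myh6 at no more than 0.0448 FPKM in any library. The 12 cardiomyocyte genes summed to 49.5 to 56.7 FPKM in ES50 cells and 15.4 to 17.5 FPKM in NC cells, with Tnnt2 at a mean of 40.2 FPKM in ES50 cells and 12.1 FPKM in NC cells. The 7 myoblast genes, of which 4 reached that level, summed to 88.7 to 97.4 FPKM in ES50 cells and 127 to 128 FPKM in NC cells, and 7 fibroblast genes, of which 6 did, summed to 556 to 585 FPKM in ES50 cells and 2423 to 2509 FPKM in NC cells. Single markers within the sums went both ways. Cdh15 had a mean of 14.6 FPKM in ES50 cells and 85.4 FPKM in NC cells. The myoblast genes Myod1 (57.5 and 32.0 FPKM), Des (19.1 and 9.10) and Myog (2.44 and 0.951) were instead higher in ES50 cells. Of the cardiomyocyte genes, Pln was higher in ES50 cells (12.3 and 1.64 FPKM) and Tnni3 lower (0.512 and 2.18). The part of these shifts in the results below was not tested.

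The libraries held 14004929 to 17247201 reads on genes. Genes of the mitochondrial chromosome took 46.7% to 49.6% of the reads in P_ES50 libraries and 5.41% to 5.60% in P libraries, and they took 91.4% to 92.9% in ES50 libraries and 11.6% to 14.0% in NC libraries. The nuclear genes of ES50 cells were therefore measured with 1230554 to 1466851 reads, against 12059244 to 13933169 reads in NC cells. The divisor of the deposited FPKM was not the number of reads. It was 2219753 in ES50 replicate 1, which had 17247201 reads, and 22695063 in NC replicate 1, which had 14017831. The deposited FPKM set the median gene about equal between libraries, so every value of a subunit below is relative to the other genes of its library and says nothing of RNA per cell. In bulk RNA, fewer cells of a type and less RNA per cell cannot be told apart. Nothing says that the numbered replicates were separate cultures, so the p-values reflect only how far these libraries varied, possibly for technical reasons.

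Promoters were read for 70 of the 81 member symbols, 15 of them through a synonym, from RefSeq on the build GRCr8, as 300 bases from 250 before to 50 after the start. The build of the deposited table is Rnor 6.0, so no position of one is carried to the other. Atp5i and Cox8a are shown as subunits with large responses to 50 pulses, and Sdha and Ndufs1 as subunits with small ones, all chosen after their values were seen. Capitals mark, on either strand, an NRF1 motif (the runs of capitals in Sdha, in which the middle base may be any), CCGGAAG of an ETS family motif such as that of GABPA, and AAGATGG of a YY1 motif, which do not overlap in these 4 promoters. They lie at chr14:1464610-1464909, plus strand (Atp5i, listed there as Atp5me), chr1:213833574-213833873, minus strand (Cox8a), chr1:30764303-30764602, plus strand (Sdha) and chr9:72073556-72073855, minus strand (Ndufs1).
Atp5i: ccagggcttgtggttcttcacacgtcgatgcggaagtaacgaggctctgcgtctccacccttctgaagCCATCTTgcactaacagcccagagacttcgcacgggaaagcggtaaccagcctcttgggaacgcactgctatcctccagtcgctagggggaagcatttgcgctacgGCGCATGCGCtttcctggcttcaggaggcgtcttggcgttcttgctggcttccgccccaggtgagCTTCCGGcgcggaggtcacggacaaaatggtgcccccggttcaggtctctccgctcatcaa
Cox8a: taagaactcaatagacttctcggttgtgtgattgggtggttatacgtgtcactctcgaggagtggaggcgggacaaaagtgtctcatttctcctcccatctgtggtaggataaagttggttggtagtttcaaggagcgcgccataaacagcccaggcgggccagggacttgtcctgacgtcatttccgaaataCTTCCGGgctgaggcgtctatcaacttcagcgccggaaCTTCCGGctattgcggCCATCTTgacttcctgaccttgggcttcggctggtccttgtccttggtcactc
Sdha: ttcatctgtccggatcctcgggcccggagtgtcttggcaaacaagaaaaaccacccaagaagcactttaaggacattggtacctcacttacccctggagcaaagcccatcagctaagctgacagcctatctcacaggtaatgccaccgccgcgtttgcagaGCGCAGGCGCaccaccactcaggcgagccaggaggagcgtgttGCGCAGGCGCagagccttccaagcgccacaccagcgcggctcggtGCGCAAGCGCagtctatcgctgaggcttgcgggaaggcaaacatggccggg
Ndufs1: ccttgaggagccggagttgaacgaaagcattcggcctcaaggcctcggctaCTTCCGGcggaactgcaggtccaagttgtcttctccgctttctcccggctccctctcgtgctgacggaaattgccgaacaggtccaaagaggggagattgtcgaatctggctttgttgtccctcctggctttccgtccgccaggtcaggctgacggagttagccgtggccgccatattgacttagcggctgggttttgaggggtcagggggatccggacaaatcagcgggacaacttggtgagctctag
Atp5i held all 3 motifs once. Cox8a held 2 ETS motifs and 1 YY1 motif, whose first base lay at -3 from the start. Sdha held 3 NRF1 motifs, and Ndufs1 held 1 ETS motif at -199. NRF1, GABPA and YY1 are known regulators of respiratory chain genes. Over all 70 member promoters, 15.7% held the NRF1 letters, against 4.71% of 27457 promoters in all. The ETS letters were in 28.6% of member promoters and 9.22% of all, and the YY1 letters in 24.3% and 7.30%. The TATA box letters TATAAA were in 7.14% of member promoters and 14.3% of all. Member promoters had a median GC content of 56.5%, against 52.3% over all promoters, so the letters are not set against promoters of like composition. A match of letters is a description, not a site.

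In untreated cells the members spanned a wide range of levels, with complex IV genes at the top. Cox6a1 had the highest mean, 424 ± 27.7 FPKM (SD, n = 3), followed by Cox8a at 373 ± 14.2 FPKM, Cox4i1 at 319 ± 3.76 FPKM, Atp5b at 286 ± 9.60 FPKM and Cox6c at 226 ± 14.6 FPKM. Cox6a1 at 392 to 440 FPKM did not overlap with Cox8a at 357 to 386 FPKM. Of the 84 members, 72 reached 1 FPKM in all 3 NC libraries and 71 did so in all 18 libraries. Complex IV took 0.775% ± 0.026 of the summed FPKM of nuclear genes in NC cells (SD, n = 3), complex V 0.562% ± 0.017, complex I 0.541% ± 0.014, complex III 0.122% ± 0.0016 and complex II 0.0495% ± 0.00078.

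The tissue-type isoforms of complex IV stood far below their widespread partners. Cox6a2, the isoform of heart and skeletal muscle, had 14.0, 8.41 and 10.2 FPKM in NC libraries and made up 2.48% of the sum of Cox6a1 and Cox6a2. Cox8b, another muscle isoform, had 0 reads in all 3 ES50 libraries and 5, 2 and 4 reads in NC libraries. Cox4i2, the isoform of Cox4i1 known from lung, had 0 reads in all 3 ES50 libraries and 0, 1 and 4 reads in NC libraries. Cox6b2, known from testis, had reads in 1 of 3 NC libraries. Ndufa4l2, a relative of Ndufa4 that is induced by low oxygen, had 0, 0 and 2 reads in ES50 libraries and 4, 5 and 4 in NC libraries. No fold is given for these genes at such depths. Cox7a1 was not analysed here.

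**Figure D1:**
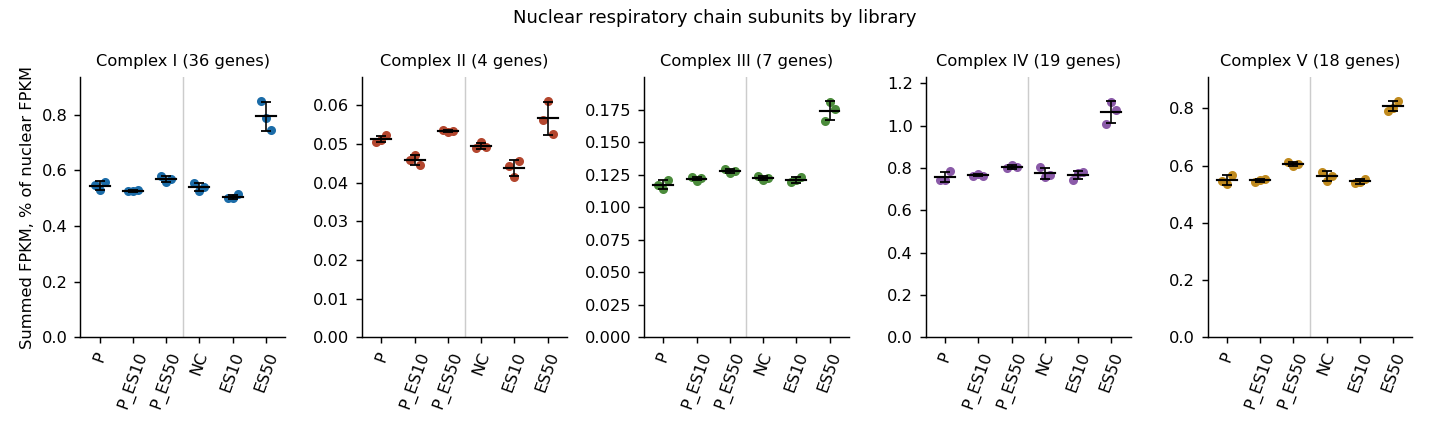
Summed FPKM of the member genes of each complex, as percent of the FPKM of all nuclear genes (vertical axes from 0), in each library of the 6 groups; points are libraries, bars the group mean with 1 SD. The ES50 libraries lie above every other library for complexes I, III, IV and V, and the P_ES50 libraries lie above the P libraries for complexes II, III, IV and V.

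After 50 pulses without PE, subunit mRNAs rose across all 5 complexes relative to other genes. Of the 76 members tested, 72 were higher in ES50 than in NC cells and 0 were lower, where 31.9% of all 11917 genes were higher and 40.1% lower (limma on log2(FPKM + 1), adjusted p under 0.05 over all genes). The members had a median log2 fold change of 1.05, against -0.13 over all genes tested. In 70 of the 76 members the 3 ES50 libraries lay above the 3 NC libraries, as in 29.9% of all genes, and in 0 below, as in 37.8% of all genes. At an unadjusted p under 0.05 the count of lower members was also 0 in limma. With voom weights it was 0 at an adjusted p under 0.05. Together the members took 2.87% to 2.95% of nuclear FPKM in ES50 libraries and 2.00% to 2.11% in NC libraries.

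This held for every complex, with complex II lowest. Complex I had 32 of 33 tested genes higher at a median log2 fold change of 1.102, complex II 4 of 4 at 0.56, complex III 7 of 7 at 0.93, complex IV 14 of 14 at 1.12 and complex V 15 of 18 at 1.05. The share of nuclear FPKM of complex IV was 1.06% ± 0.053 in ES50 cells and 0.775% ± 0.026 in NC cells (SD, n = 3 each). Complex II took 0.0567% ± 0.0043 in ES50 cells and 0.0495% ± 0.00078 in NC cells. All 4 members that were not called are named further on (Ndufv3-ps1, both rows of Atp5f1, and Atp5sl).

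In complex I the 7 core subunits, which carry the flavin and the iron-sulfur clusters, had a median log2 fold change of 0.61, and the 26 other genes tested one of 1.16. Ndufs1, the largest iron-sulfur subunit of the arm that takes up NADH's electrons, had 21.7, 17.4 and 23.1 FPKM in ES50 libraries, against 17.7, 17.99 and 16.7 FPKM in NC libraries. These groups overlapped, and the log2 fold change of 0.22 ± 0.08 (SE) passed the test at an adjusted p of 0.0252. Without ES50 replicate 3 it was 0.14 with an adjusted p of 0.123, and it lost the call also without NC replicate 3 (0.19) or ES50 replicate 1 (0.19). It was not called either with nuclear reads as the scale (0.16), quantile normalization (0.15), voom weights (0.23) or only the groups compared. Ndufv1, which binds NADH and the flavin, had 56.9, 72.4 and 54.0 FPKM in ES50 libraries, against 49.6, 45.8 and 50.7 FPKM in NC libraries, all lower (log2 fold change 0.31 ± 0.08, adjusted p 0.00342). With only the groups compared its adjusted p was 0.0594, and with quantile normalization its value was 0.01 (adjusted p 0.901).

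The small supernumerary subunits of complex I, which surround that core, moved further. Ndufb10, of the membrane arm, had 85.7, 72.3 and 64.8 FPKM in ES50 libraries, against 25.9, 24.9 and 27.1 FPKM in NC libraries. Each ES50 value was above all NC values, and the log2 fold change was 1.47 ± 0.10 (adjusted p 3.49e-09). Ndufc1 followed at 1.45 ± 0.17 and Ndufa6, which holds the acyl carrier protein at the complex, at 1.36 ± 0.10. Ndufa4 had 156, 144 and 164 FPKM in ES50 libraries and 92.9, 81.7 and 81.1 FPKM in NC libraries.

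The 4 genes of complex II ranged in log2 fold change between 0.16 and 1.00. Sdha, the flavoprotein that oxidises succinate, had 14.6, 16.5 and 15.1 FPKM in ES50 libraries and 13.4, 13.1 and 14.5 FPKM in NC libraries. The ES50 values lay just above the NC values (log2 fold change 0.16 ± 0.07, adjusted p 0.0402), and the call was lost without ES50 replicate 2 (0.12), NC replicate 1 (0.15) or NC replicate 2 (0.13). It was also lost with nuclear reads as the scale (0.10), quantile normalization (0.15), voom weights (0.19), only the groups compared or the replicate block. Sdhb, the iron-sulfur subunit, rose by 0.76 ± 0.07. Sdhc, a membrane anchor, had 100.2, 128 and 102 FPKM in ES50 libraries, against 52.1, 56.7 and 53.8 FPKM in NC libraries, and rose by 1.00 ± 0.07 (adjusted p 4.87e-09). The other anchor, Sdhd, had 38.4, 48.9 and 33.5 FPKM in ES50 libraries and 32.3, 30.6 and 29.6 FPKM in NC libraries (0.36 ± 0.11). Sdhd was not called with only the groups compared (adjusted p 0.0630) or with quantile normalization (0.15, adjusted p 0.214).

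Complex III split between its large core proteins and its small subunits. Uqcrc1 and Uqcrc2, the core proteins, rose by 0.40 ± 0.08 and 0.31 ± 0.07, and Uqcrc1 was not called with quantile normalization (0.11, adjusted p 0.195). Uqcrfs1, the Rieske iron-sulfur protein, had 92.2, 88.6 and 90.2 FPKM in ES50 libraries and 46.7, 45.8 and 48.4 FPKM in NC libraries (0.93 ± 0.07). Uqcrb, a small subunit near the ubiquinone site, had 64.4, 60.5 and 67.0 FPKM in ES50 libraries and 23.9, 19.0 and 21.1 FPKM in NC libraries. These groups were well apart, and Uqcrb had the largest log2 fold change of the complex, 1.54 ± 0.09 (adjusted p 3.31e-10). Uqcrq and Uqcr10, both small, followed at 1.49 ± 0.06 and 1.47 ± 0.12, and Uqcrh, the hinge protein beside cytochrome c1, rose by 0.90 ± 0.10.

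All 14 tested genes of complex IV rose. Cox8a had 940, 1019 and 939 FPKM in ES50 libraries, against 386, 357 and 375 FPKM in NC libraries, the highest level that any member reached, and its log2 fold change was 1.37 ± 0.05 (adjusted p 5.58e-13). Cox7a2l, which takes part in joining complexes III and IV in a supercomplex, rose by 1.35 ± 0.08. Cox5a, on the matrix side, had 177, 213 and 165 FPKM in ES50 libraries and 88.5, 81.6 and 83.4 FPKM in NC libraries (1.12 ± 0.08). Cox4i1, the regulatory subunit that enters early in assembly, rose least, by 0.66 ± 0.04, with 480, 546 and 497 FPKM in ES50 libraries and 320, 316 and 323 FPKM in NC libraries. Cox6a1 and Cox6a2 rose by like amounts, 0.72 ± 0.05 and 0.76 ± 0.19, so that Cox6a2 was 2.604% of their sum in ES50 cells and 2.48% in NC cells.

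In complex V the catalytic head moved least. Atp5a1, the alpha subunit, had 87.8, 98.0 and 98.1 FPKM in ES50 libraries and 80.0, 81.6 and 77.1 FPKM in NC libraries (log2 fold change 0.25 ± 0.05, adjusted p 0.000272). Atp5b, the catalytic beta subunit, had 424, 399 and 407 FPKM in ES50 libraries, against 297, 280 and 281 FPKM in NC libraries, and rose by 0.52 ± 0.03. In the central stalk, Atp5c1 (gamma) rose by 0.98 ± 0.05, whereas Atp5e (epsilon) had 413, 503 and 453 FPKM in ES50 libraries and 152, 146 and 140 FPKM in NC libraries. Its groups were well apart. On the log2(FPKM + 1) scale, its log2 fold change of 1.63 ± 0.08 (adjusted p 3.24e-11) was the largest of the 73 members whose replicates gave even reads. Atp5i, a membrane subunit at the dimer interface, followed at 1.54 ± 0.13. By the ratio of mean FPKM, Atp5s stood above Atp5e, at 4.36 against 3.13. Atp5s was a low gene, with a mean of 3.19 FPKM in ES50 cells and 0.732 FPKM in NC cells. It is listed in RefSeq as Dmac2l and was counted with complex V by its symbol only.

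The 3 genes that code for the same subunit c of the proton-driven ring rose together, Atp5g1 by 1.23 ± 0.06, Atp5g2 by 1.15 ± 0.05 and Atp5g3 by 1.05 ± 0.06. Their shares of the c-subunit FPKM stayed near each other, with Atp5g2 at 44.3% ± 1.4 in ES50 cells and 44.1% ± 0.80 in NC cells, and Atp5g3 at 29.2% ± 1.0 in ES50 cells and 31.0% ± 1.0 in NC cells (SD, n = 3 each). Atp5sl, known in human cells as a factor of complex I assembly rather than an ATP synthase subunit, had 7.15, 5.65 and 7.18 FPKM in ES50 libraries and 5.31, 5.79 and 6.51 FPKM in NC libraries and was not called (0.15 ± 0.09).

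**Figure D2:**
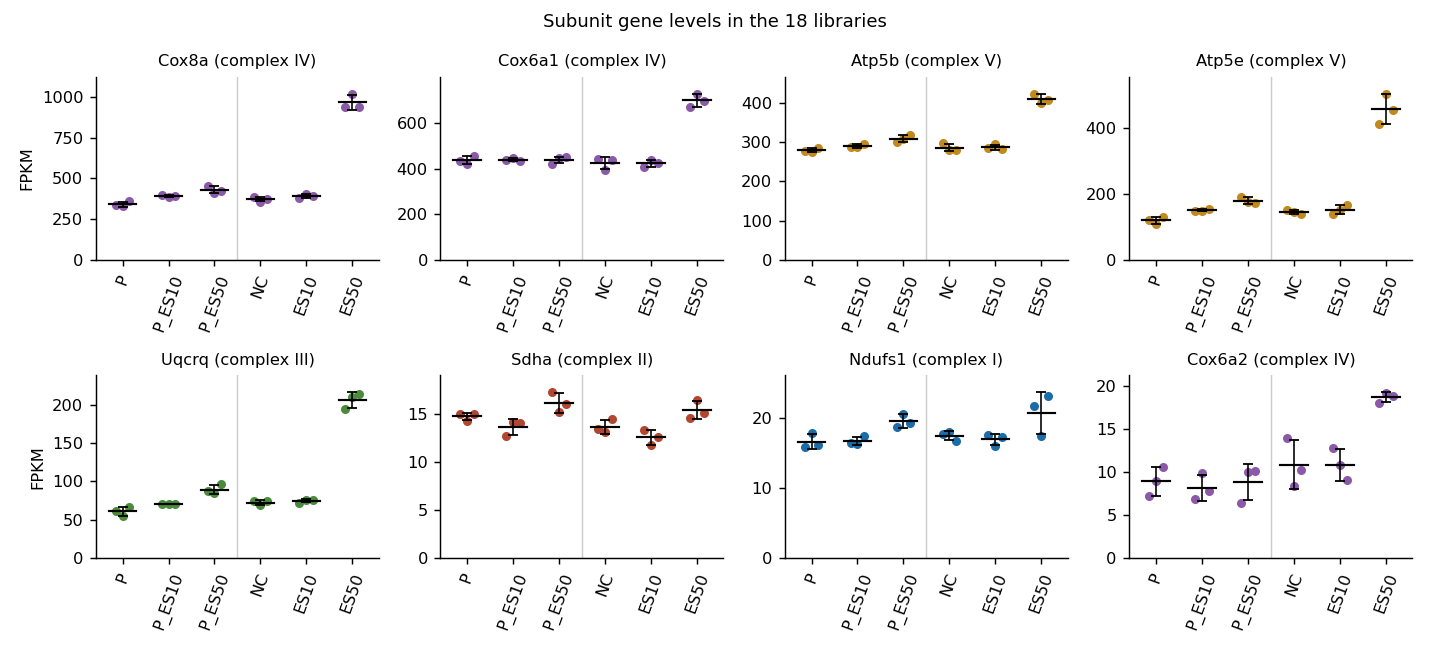
FPKM of 8 member genes (vertical axes from 0) in each library of the 6 groups; points are libraries, bars the group mean with 1 SD. Cox8a, Atp5e and Uqcrq stand well above the other groups in ES50 cells, whereas the ES50 and NC libraries of Ndufs1 overlap.

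The ES50 response depended on how the values were scaled. Set to all reads, of which mitochondrial genes take most in ES50 cells, the median of all genes tested shifted to -2.43 and that of the members to -2.37, with 0 members higher and 74 lower. Set to the reads of nuclear genes alone, 70 members were higher and 0 lower, with a median of 0.98 against -0.22 for all genes. With quantile normalization 60 were higher and 4 lower, and the 4 were the abundant Cox4i1 (-0.17), Cox6a1 (-0.28), Atp5a1 (-0.17) and Atp5b (-0.28). The rise is therefore one relative to other nuclear genes, and its size depends on the measure. The members' summed FPKM was 11691 ± 274 in ES50 cells and 5598 ± 227 in NC cells (SD, n = 3 each). Their mean share of nuclear FPKM was 2.90% in ES50 cells and 2.05% in NC cells, a smaller rise. Members with small changes in FPKM therefore need not have risen as a share of nuclear FPKM.

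Member genes are short, and up to 2400 bases their median response was lower in longer genes. The 76 tested members had a median length of 718.5 bases, against 2113 for all genes tested. Across the 76 members the ES50 log2 fold change ran against log10 gene length with Pearson's r of -0.52 and Spearman's rho of -0.51, and across all 11917 genes with r of -0.07 and rho of -0.25. Genes are not independent replicates and share these libraries, so both are descriptions. Up to 600 bases, the 31 members had a median of 1.17 and nuclear genes one of -0.34, with 30 of the 31 higher, against 26.3% of 1389 nuclear genes. Over 600 and up to 1200 bases, all 24 members were higher at a median of 1.05, against 56.4% of 1412 nuclear genes at a median of 0.59. Over 1200 and up to 2400 bases, 15 of 18 members were higher at 0.39, against 39.6% of 3975 nuclear genes at 0.10. The 3 members over 2400 bases went against this order, with 3 of 3 higher at a median of 0.97, against 20.2% of 5107 nuclear genes at -0.39.

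With the length trend of each library removed, 66 members were higher and 0 lower in ES50 than in NC cells, at a median of 0.60. Sdhd then stood at 0.02 and Ndufv1 at 0.16, both no longer called. Cox4i1 stood at 0.10, Cox6a1 at 0.19 and Sdhb at 0.30, all still called. The core subunits named above are also the longer genes, with a median length of 1064 bases for the core of complex I and 603 bases for its other genes, so role and length cannot be told apart here.

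**Figure D3:**
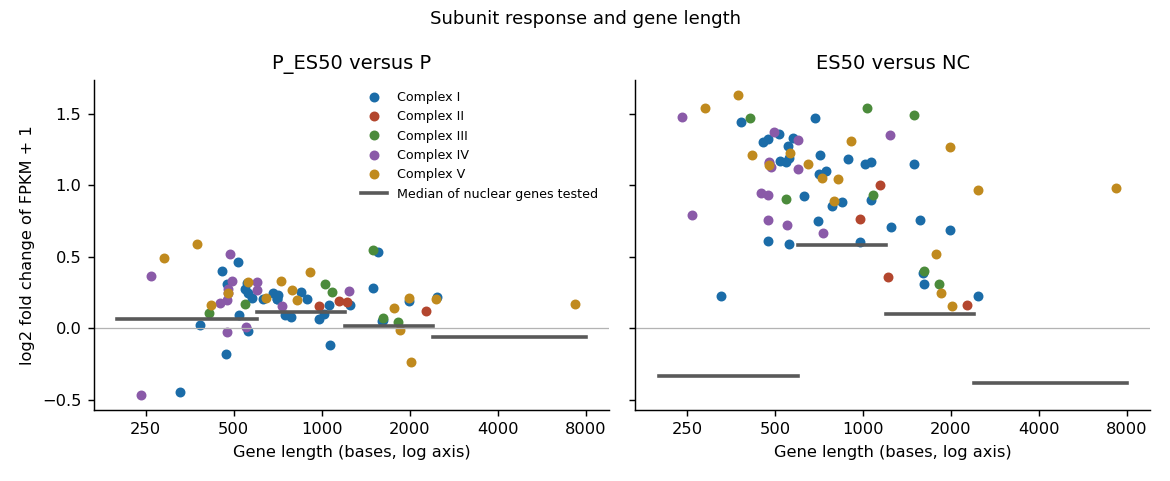
Log2 fold change of FPKM + 1 for each tested member (vertical axis) against gene length in bases (log axis), for P_ES50 versus P on the left and ES50 versus NC on the right, without Ndufa1 and Atp5f1; grey bars give the median of nuclear genes tested in 4 length classes. Shorter members lie higher on the right, and the members' points lie mostly above the grey bars.

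With 10 pulses and no PE the subunits hardly moved. In ES10 versus NC 0 of 76 members were higher, where 6.36% of all genes tested were, and 1 was lower, where 2.21% were, with a members' median of 0.01. At an unadjusted p under 0.05 in limma 2 members were higher and 4 lower, and with voom weights 1 was higher and 2 lower at an adjusted p under 0.05. In 4 members the ES10 libraries lay above the NC libraries, as in 23.9% of all genes, and in 10 below, as in 15.8%. The lower one was Ndufa8, a supernumerary subunit on the intermembrane side, with 22.9, 24.1 and 26.2 FPKM in ES10 libraries and 28.2, 27.9 and 29.9 FPKM in NC libraries. These did not overlap (log2 fold change -0.23 ± 0.07, adjusted p 0.0481), but the call was lost without any 1 of the 3 NC libraries or of ES10 replicates 1 and 2, where the value ran between -0.18 and -0.24. Complex I took 0.501% to 0.513% of nuclear FPKM in ES10 libraries and 0.527% to 0.555% in NC libraries. Complex II took 0.0415% to 0.0456% in ES10 libraries and 0.0489% to 0.0504% in NC libraries. Both shares had no overlap, whereas those of complexes III, IV and V overlapped. The summed FPKM of complex I did overlap, at 1424 to 1482 in ES10 libraries and 1419 to 1534 in NC libraries. That of complex II did not, at 120 to 132 in ES10 libraries and 135 to 136 in NC libraries.

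PE alone left the set near its untreated level. In P versus NC 0 members were higher, where 4.72% of all genes were, and 2 were lower, where 4.81% were. At an unadjusted p under 0.05 in limma 3 were higher and 6 lower. With voom weights 3 were higher and 6 lower at an adjusted p under 0.05, more than the main fit called at that threshold. In 5 members the P libraries lay above the NC libraries, as in 22% of all genes, and in 9 below, as in 20.7%. Uqcrq had 61.7, 54.7 and 66.6 FPKM in P libraries, against 74.4, 69.1 and 74.0 FPKM in NC libraries, with every P value below (log2 fold change -0.25 ± 0.06, adjusted p 0.0234). Atp5e had 120, 109 and 129 FPKM in P libraries and 152, 146 and 140 FPKM in NC libraries (-0.29 ± 0.08, adjusted p 0.0295). Uqcrq lost its call without NC replicate 1 or 3 or P replicate 1 or 2, and Atp5e without NC replicate 1 or 2 or P replicate 1 or 2, with values between -0.17 and -0.29. Without NC replicate 1, P replicate 1 or P replicate 2 there were 0 members lower, and 1 without NC replicate 2 or 3.

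In cells kept with PE, 10 pulses moved 5 members. In P_ES10 versus P 4 were higher, where 13.2% of all genes were, and 1 was lower, where 9.66% were. In 14 members the P_ES10 libraries lay above the P libraries, as in 27.2% of all genes, and in 10 below, as in 25.7%. Uqcrh had 112, 100.2 and 110 FPKM in P_ES10 libraries, against 83.1, 79.9 and 89.0 FPKM in P libraries, and rose by 0.35 ± 0.10 (adjusted p 0.0166). Atp5e (0.33 ± 0.08), Uqcrq (0.21 ± 0.06) and Cox8a (0.20 ± 0.05) also rose, and Atp5sl fell by 0.28 ± 0.09 on the log2 scale. The count of higher members was 2 without P replicate 1, P replicate 2 or P_ES10 replicate 3, and 7 without P replicate 3. It was 0 with values set to all reads and 1 with values set to nuclear reads. Atp5e and Cox8a kept their calls with each library left out. Uqcrh lost its call without P replicate 1 or 2 or P_ES10 replicate 1 or 3 (0.31 to 0.34), Uqcrq without P replicate 1 or 2 or any P_ES10 library (0.14 to 0.22), and Atp5sl without any P library or P_ES10 replicate 2 or 3 (-0.24 to -0.30).

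With 50 pulses in the presence of PE the subunits rose again, by less. In P_ES50 versus P 33 of 76 members were higher, where 14.1% of all genes tested were, and 1 was lower, where 14.2% were. The members' median log2 fold change was 0.20, against -0.01 over all genes. In 48 members the P_ES50 libraries lay above the P libraries (24.2% of all genes did) and in 3 below (26.4% did). All members together took 2.15% to 2.17% of nuclear FPKM in P_ES50 libraries and 1.97% to 2.08% in P libraries. The higher members numbered 11 of 33 in complex I, 0 of 4 in complex II, 3 of 7 in complex III, 8 of 14 in complex IV and 11 of 18 in complex V.

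Atp5e again stood first, with 191, 176 and 173 FPKM in P_ES50 libraries and 120, 109 and 129 FPKM in P libraries (log2 fold change 0.59 ± 0.08, adjusted p 4.64e-05). Uqcrq had 87.1, 84.6 and 96.1 FPKM in P_ES50 libraries, against 61.7, 54.7 and 66.6 FPKM in P libraries, and rose by 0.55 ± 0.06 (adjusted p 1.65e-05). In both genes all 3 P_ES50 values were above the P values. Their P libraries are shared by the comparisons with NC, P_ES10 and P_ES50, so the 3 results for Uqcrq and Atp5e do not stand alone.

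In complex I, Ndufv3, a supernumerary subunit of the NADH-binding module, rose by 0.53 ± 0.14, Ndufa6 by 0.46 ± 0.10, Ndufb2 by 0.40 ± 0.10 and Ndufb7 by 0.32 ± 0.07. Ndufv3 had 22.2, 22.9 and 22.3 FPKM in P_ES50 libraries and 14.0, 15.3 and 16.5 FPKM in P libraries, which did not overlap. In complex IV Cox8a rose by 0.33 ± 0.05 and Cox5a by 0.32 ± 0.08. In complex V Atp5i rose by 0.49 ± 0.13, Atp5j, of the peripheral stalk, by 0.39 ± 0.10 and Atp5g3 by 0.33 ± 0.06. Of complex III, Uqcrb rose by 0.31 ± 0.09 and Uqcrfs1 by 0.26 ± 0.07. Calls were lost for Ndufv3 without P replicate 1 (0.48), Atp5i without P replicate 2 (0.40), Uqcrb without P replicate 1 (0.21) or P_ES50 replicate 1 (0.29), and Uqcrfs1 without P replicate 2 (0.22) or P_ES50 replicate 2 (0.15). With the length trend removed, Cox5a (0.17), Ndufb7 (0.17), Uqcrb (0.22) and Uqcrfs1 (0.18) were not called, and with quantile normalization Cox5a (0.18) and Uqcrfs1 (0.17) were not.

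The lower member was Cox7b2, an isoform of Cox7b, with 34, 32 and 37 reads in P_ES50 libraries and 93, 80 and 91 reads in P libraries (log2 fold change of FPKM + 1 -0.47 ± 0.15, adjusted p 0.0276). It lost this call without P replicate 1 or 3 or P_ES50 replicate 1 or 2 (-0.40 to -0.47), with voom weights (-0.49) and without the filter on low values. Its gene is 1 unspliced block of 240 bases at chr14:39368530-39368769 of Rnor 6.0, so reads may be shared with Cox7b. All 4 genes of complex II were above P in all 3 P_ES50 libraries but were not called, at 0.12 to 0.19.

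The count of 33 was less firm than that of ES50. It was 18 without P replicate 2 and 23 to 31 without any other library left out in turn, 18 with quantile normalization and 16 with the length trend removed, where the median was 0.10. Set to all reads it was 0, with 71 lower, at a shift of -0.77 in the median of all genes and -0.68 in that of the members.

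**Figure D4:**
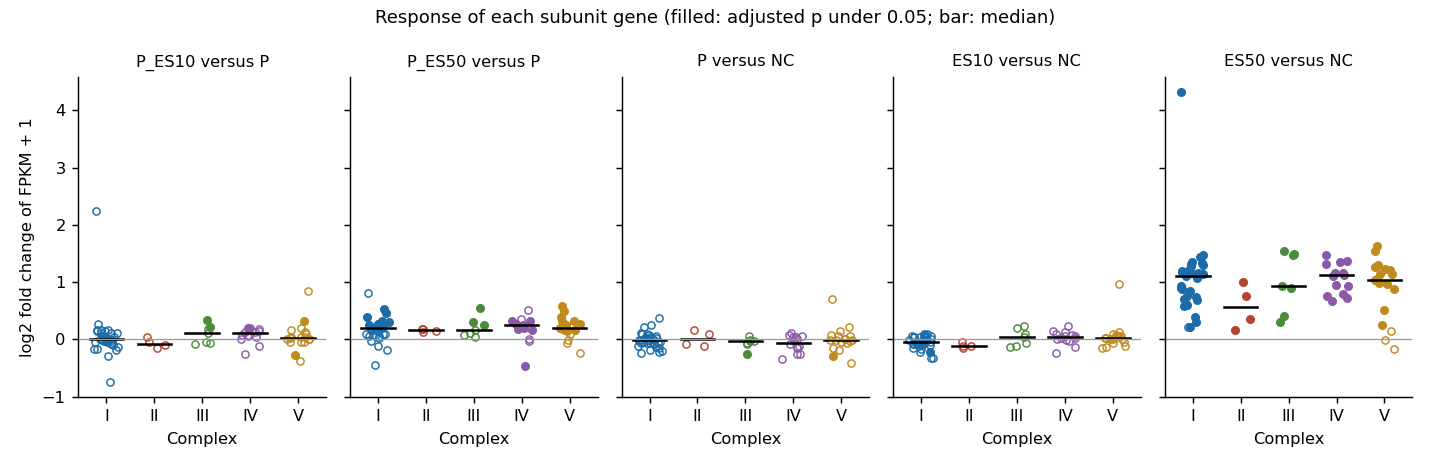
Log2 fold change of FPKM + 1 (vertical axis) of the 76 tested members by complex, in 5 comparisons; filled points have an adjusted p under 0.05, open points do not, and bars are medians. The medians in ES50 versus NC run between 0.56 and 1.12, and those in P_ES50 versus P between 0.17 and 0.25, while the point at 4.33 is Ndufa1.

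The responses to 50 pulses with and without PE differed. The interaction, the change with PE minus the change without it, was lower in 65 of 76 members and higher in 0, where 27.9% of all genes tested were lower and 31.1% higher. Its median was -0.81 over the members and 0.05 over all genes. By complex it was -0.89 (28 of 33 lower) in complex I, -0.39 (2 of 4) in complex II, -0.74 (7 of 7) in complex III, -0.79 (12 of 14) in complex IV and -0.83 (16 of 18) in complex V. Cox7b2 had the largest called difference, -1.94 ± 0.21, followed by Ndufc1 at -1.42 ± 0.24 and Uqcr10 at -1.36 ± 0.17. Ndufs1 (-0.00 ± 0.12), Ndufv1 (-0.25 ± 0.12), Sdha (-0.04 ± 0.09) and Sdhd (-0.18 ± 0.15) were among the 11 not called. With values set to all reads, where the median of all genes moved to 1.65, 71 members were higher and 0 lower. For 10 pulses the interaction called 0 members in either direction, where 0.562% of all genes were higher and 0.344% lower, and at an unadjusted p under 0.05 in limma 2 were higher and 0 lower.

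The 13 subunit genes of the mitochondrial chromosome took another course than the nuclear ones. All 13 were higher in P_ES50 than in P cells, at a median log2 fold change of 4.02, where 14.1% of all genes were. All 13 were also higher in ES50 than in NC cells, at 6.53, where 31.9% of all genes were. In ES10 versus NC 11 of the 13 were instead lower and 0 higher, at -0.46, where 2.21% of all genes were lower. In P_ES10 versus P 9 were higher and 0 lower, at 0.32, where 13.2% of all genes were higher. The interaction at 10 pulses was higher in 12 of the 13, where 0.562% of all genes were. With PE alone all 13 were lower, at -1.35, where 4.81% of all genes were lower and the nuclear members had a median of -0.02. The summed FPKM of the 7 mitochondrial complex I genes was 54.1 ± 3.18 times that of its nuclear members in P_ES50 cells and 3.84 ± 0.12 times in P cells (SD, n = 3 each). In complex I it was 401 ± 26.4 times in ES50 cells and 9.87 ± 0.93 times in NC cells. For complex IV, with 3 mitochondrial genes, the ratio was 905 ± 154 in ES50 cells and 21.1 ± 1.86 in NC cells. These ratios are free of the library scaling. Per the labels' protocols, the RNA was captured by its poly(A) tail.

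Related genes of the chain were counted beside the members. Of 15 tested rows of chain genes that the symbol rule misses, 14 were higher and 1 lower in ES50 than in NC cells, at a median log2 fold change of 0.76. A row of Cycs, cytochrome c, rose by 0.91 ± 0.06, Cyc1, cytochrome c1 of complex III, by 0.48 ± 0.07, and Etfb, of the electron transfer flavoprotein, by 1.18 ± 0.11. The lower one was Coq6, an enzyme of ubiquinone synthesis, at -0.91 ± 0.21. In P_ES50 versus P 5 of the 15 rows were higher, among them Atpif1, the inhibitor of ATP synthase, by 0.51 ± 0.08. Of 42 assembly factors tested, 30 were higher and 2 lower in ES50 than in NC cells, at a median of 0.80, where 31.9% and 40.1% of all genes were. In P_ES50 versus P 7 of the 42 were higher and 2 lower, where 14.1% and 14.2% of all genes were, so the higher count was near the share over all genes. Cmc1, a factor of complex IV assembly, rose most in ES50 cells, by 2.09 ± 0.16, and the 2 lower ones were Sco1, a copper chaperone, at -0.77 ± 0.14 and Foxred1 at -0.32 ± 0.11.

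Of 10 regulators of these genes tested in ES50 versus NC, 1 was higher and 5 were lower, where 31.9% of all genes were higher and 40.1% lower, so the lower count was near that share. Pprc1, a coactivator of the PGC1 family, fell by 1.52 ± 0.13 on the log2 scale, Sp1 by 1.16 ± 0.05, Yy1 by 0.72 ± 0.06, Gabpa by 0.48 ± 0.11 and Tfb2m by 0.43 ± 0.17. Tfb1m, a mitochondrial ribosomal RNA methyltransferase, rose by 0.80 ± 0.15. In P_ES50 versus P Yy1 rose by 0.47, Tfam, which packs mitochondrial DNA, by 0.31 and Sp1 by 0.14, and Esrra fell by 0.22.

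A few members could not be read with confidence. Ndufa1 had 179, 51 and 0 reads in ES50 libraries and 5, 3 and 2 in NC libraries, and 1, 23 and 229 reads in P_ES10 libraries and 0, 4 and 3 in P libraries. Reads thus ran between 0 and 179 within ES50 cells and between 1 and 229 within P_ES10 cells, and its ES50 call (4.33 ± 1.58, adjusted p 0.0231) was lost without ES50 replicate 1 (2.56) or 2 (3.58) or NC replicate 2 (4.28) or 3 (4.21). Atp5f1, subunit b of the peripheral stalk, has 2 rows of the same length, 2063 bases, at chr2:208408890-208420163 and chr2:208566385-208577146 of Rnor 6.0. The first had 1, 1 and 2 reads in ES50 libraries and 13, 7 and 22 in NC libraries, and the second had 3, 2 and 6 reads in ES50 libraries and 85, 29 and 34 in NC libraries. ES10 replicate 3 had 362 reads on the first row and P_ES10 replicate 3 had 274 on the second. How reads of like copies were assigned is not given in the sources used here. Without these 3 rows, 71 of 73 members were higher and 0 lower in ES50 than in NC cells, at a median of 1.05 and a range of 0.15 to 1.63. The sums, shares and ratios of complexes I and V and of all members include these 3 rows. Ndufa1 had a mean of 157 FPKM in ES50 cells and 0.650 FPKM in NC cells. All complex I members summed to a mean of 3206 FPKM in ES50 cells and 1477 FPKM in NC cells.

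**Figure D5:**
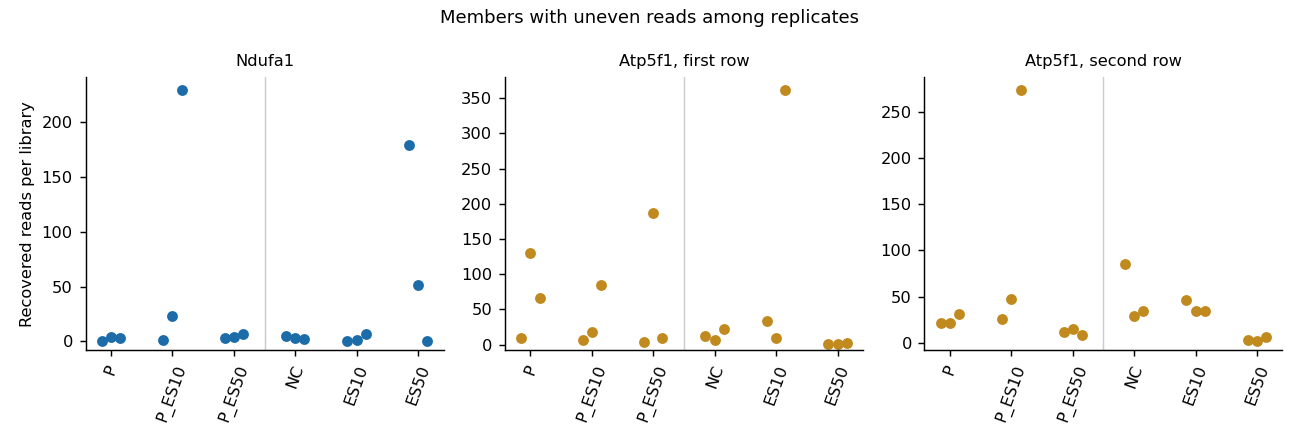
Recovered reads (vertical axes) of Ndufa1 and of the first and second row of Atp5f1 in each library of the 6 groups; points are libraries. Single libraries reach 229, 362 and 274 reads where others of the same group have under 100.

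Of the 84 members, 6 rows have a length equal to their genomic span, as an unspliced copy would, and 3 of these passed the filter (Cox7b2, Ndufv3-ps1 and the Cox6b1 row of chromosome 2), where reads may be shared with a spliced gene. The Cox6b1 row of chromosome 2 held 17.8% ± 2.9 of the FPKM of both Cox6b1 rows in ES50 cells and 23.5% ± 1.4 in NC cells (SD, n = 3 each). The spliced row of chromosome 1 rose by 1.32 ± 0.05 and the other by 0.79 ± 0.15 in ES50 versus NC. Ndufv3-ps1 had 6, 4 and 0 reads in ES50 libraries and 20, 16 and 17 in NC libraries. The 8 members below the filter were Ndufa4l2, Ndufb4l1, Cox4i2, Cox6b2, Cox6c1, Cox8b, Cox8c and the Ndufa13 row of chromosome 7, of which 2 had no read in any library.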

How the data were processed

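Poly(A) RNA of H9C2 cells was sequenced in 18 libraries, 3 in each of 6 groups, which were taken from the sample labels. The deposited values are FPKM per gene with gene lengths in bases, a column for each library, on the build Rnor 6.0, per the submitters' processing notes. Not given in the sources used here are the aligner, counting tool, annotation release, strandedness, harvest time after the pulses and the full name of PE. Each FPKM times gene length, divided by the smallest step of its library, gave a whole read number (within 0.01) in 100% of cases, so reads could be recovered.

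The 11917 genes that reached 1 FPKM in 3 or more libraries were tested on the log2(FPKM + 1) scale, using limma 3.58.1 with a variance trend (R 4.3.3). All 18 libraries entered 1 model of 6 group means, which pools the spread over groups. Low genes appear to change less than they do on this scale. Adjustment followed Benjamini and Hochberg over all genes tested, and an adjusted p under 0.05 was called. Errors of fold changes are SE. Alternatives were a pseudocount of 0.1, no filter, 3 other scalings, only the groups compared, a replicate block, voom weights on recovered reads, a length correction (loess of span 0.3) and each library left out. Leaving out 3 members with uneven reads was added after the data were seen. The members, lists and named genes (per complex the largest called changes, called changes against the trend, isoform pairs and catalytic subunits) were chosen with earlier results of these data known. The steps were tested on simulated data. Figures were drawn with matplotlib 3.10.9, and values were joined with pandas 2.3.3 under Python 3.11.15. Single values of 1 member are not reported here.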

Additional observations from a re-analysis of the deposited data

Results flagged for a closer look

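The responses to 50 pulses differed between cells with and without PE, by the interaction term of the model, in 65 of the 76 members tested. In complex I the interaction, as log2 fold change with PE minus that without, was -1.42 for Ndufc1, -1.23 for Ndufb10, -1.12 for Ndufa11 and -1.08 for Ndufs5. In complex II it was -0.81 for Sdhc and -0.61 for Sdhb. In complex III it was -1.36 for Uqcr10, -1.24 for Uqcrb and -0.95 for Uqcrq. In complex IV it was -1.94 for Cox7b2, -1.09 for Cox7a2l, -1.05 for the Cox6b1 row of chromosome 1 and -1.04 for Cox8a. In complex V it was -1.06 for Atp5s (counted there by its symbol only), -1.05 for Atp5j2, -1.05 for Atp5i and -1.05 for Atp5e. Atp5s rested on 12, 18 and 16 reads in ES50 libraries and 31, 34 and 42 in NC libraries, and Cox7b2 on 19, 28 and 18 reads in ES50 libraries and 74, 69 and 80 in NC libraries. Mitochondrial genes took 46.7% to 49.6% of reads in P_ES50 libraries and 91.4% to 92.9% in ES50 libraries, and their part in the difference was not tested.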

How the results depend on the processing

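Scaling to nuclear reads and quantile normalization kept the direction of most members in ES50 versus NC, with 70 and 60 higher. Scaling to total reads moved nearly all genes down alike, with 11471 of 11505 calls lower in ES50 versus NC. Set to total reads, members higher and lower were 0 and 74 in ES50 versus NC, 0 and 71 in P_ES50 versus P, 0 and 6 in P_ES10 versus P, 7 and 0 in P versus NC, 71 and 0 in the interaction at 50 pulses, and 3 were lower in ES10 versus NC. The ES50 log2 fold changes then were -1.94 for Ndufb10, -1.92 for Ndufc1, -2.11 for Ndufa6, -2.93 for Ndufs1, -3.09 for Ndufv1, -2.89 for Sdha, -2.64 for Sdhb, -2.46 for Sdhc, -2.97 for Sdhd, -2.99 for Uqcrc1, -1.85 for Uqcrb, -2.005 for Uqcrq, -1.93 for Uqcr10, -2.86 for Cox4i1, -2.81 for Cox6a1, -1.81 for Cox7b2, -2.16 for Cox8a, -2.08 for Cox7a2l, -2.18 for Cox6b1 of chromosome 1, -3.20 for Atp5a1, -3.01 for Atp5b, -1.89 for Atp5e, -1.96 for Atp5i, -2.16 for Atp5j and -0.60 for Atp5s. For P_ES50 versus P they were -0.31 for Atp5e, -0.40 for Atp5i, -0.50 for Atp5j, -0.57 for Atp5g3, -0.34 for Uqcrq, -0.56 for Uqcrb, -0.63 for Uqcrfs1, -0.33 for Ndufv3, -0.43 for Ndufa6, -0.49 for Ndufb2, -0.57 for Ndufb7, -0.57 for Cox8a, -0.57 for Cox5a and -0.62 for Cox6b1. For the interaction at 50 pulses they were 0.49 for Cox7b2, 1.46 for Cox7a2l, 1.56 for Cox6b1, 1.59 for Cox8a, 1.08 for Ndufc1, 1.31 for Ndufb10, 1.496 for Ndufa11, 1.5003 for Ndufs5, 1.17 for Uqcr10, 1.29 for Uqcrb, 1.66 for Uqcrq, 0.29 for Atp5s, 1.57 for Atp5j2, 1.56 for Atp5i, 1.58 for Atp5e, 1.76 for Sdhc and 1.91 for Sdhb. Mitochondrial reads enter this scaling by its construction. Set to nuclear reads, 3 members were lower in ES10 versus NC, and 1 was higher and 4 lower in P_ES10 versus P.

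With quantile normalization 4 members were lower in ES10 versus NC. In ES50 versus NC 60 were higher and 4 lower (Cox4i1 -0.17, Cox6a1 -0.28, Atp5a1 -0.17, Atp5b -0.28). Members higher and lower were 1 and 4 in P versus NC, and 2 and 6 in P_ES10 versus P. They were 18 and 4 in P_ES50 versus P, and 1 and 54 in the interaction at 50 pulses. With only the groups compared, counts were 2 and 4 in ES10 versus NC, and 3 and 1 in P versus NC. They were 8 and 4 in P_ES10 versus P, and 34 and 3 in P_ES50 versus P. With voom weights they were 1 and 2 in ES10 versus NC, 3 and 6 in P versus NC, and 9 and 4 in P_ES10 versus P. Without the filter 1 member was lower in P versus NC and 0 were in the 3 comparisons with 1 lower member (P_ES50 versus P, P_ES10 versus P and ES10 versus NC). A pseudocount of 0.1 left 0 lower in ES10 versus NC. The length correction left 0 lower in ES10 versus NC and P_ES10 versus P, and 16 higher and 2 lower in P_ES50 versus P. The cause of these differences was not tested.

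With 1 library left out, the members higher were 70 to 72 in ES50 versus NC, 18 to 31 in P_ES50 versus P and 2 to 7 in P_ES10 versus P. The members lower were 0 to 1 in ES10 versus NC, 0 to 2 in P versus NC, 0 to 1 in P_ES10 versus P, 0 to 1 in P_ES50 versus P and 62 to 68 in the interaction at 50 pulses. Deviations of libraries with the same replicate number correlated at -0.088 to 0.101 over 15 pairs, so the numbers were not taken as pairs. With the replicate block 0 members were lower in ES10 versus NC, 71 were higher in ES50 versus NC and 32 in P_ES50 versus P. In ES50 libraries nuclear genes had 1230554 to 1466851 reads, which limits members with few reads such as Atp5s.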

Other observations

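Members were also set by promoter motif. The median log2 fold change in ES50 versus NC was 1.05 over 11 tested members with the NRF1 letters and 1.12 over 54 without. It was 1.14 over 20 members with the ETS letters and 1.08 over 45 without, and 1.11 over 16 members with the YY1 letters and 1.12 over 49 without. These medians carry no test.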
